A study of Mus musculus with 4 samples.

Results

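Ago2 binding was examined at 6 genes that carry or restrain cytokine signals in B cell progenitors: the receptors Il7r and Kit, the kinases Jak1 and Syk, and the inhibitors Socs1 and Socs3. All rows of the authors' deposited table for these genes were taken, which gave 6 features of 2548, 1 for each gene. Of these, 5 were listed under the gene's name, and Syk was found by its gene identifier, under the older name Sykb. A feature here is a stretch of RNA that the authors counted reads over, and its length and place in the transcript were not used here.

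The libraries came from C57BL/6 mouse fetal liver cells of stage E14.5 that had been transformed with a retroviral vector coding for the Abelson kinase, an activated tyrosine kinase, with the cytokine IL-7 given to support transformation. Both genotypes share this background and vector. The 2 wild-type libraries were compared with 2 from Bim3'UTRmut/mut lines, which are homozygous for a mutated 3' UTR of Bim, a gene that promotes cell death. The method was PAR-CLIP: cells took up the photoreactive nucleoside 4-thiouridine at 500 µM for 5 hours, RNA was crosslinked to protein at 365 nm, and RNA bound to Ago2 was precipitated and sequenced. RNase T1 was used at 10 U per µl for 10 minutes in every library. Ago2 carries microRNAs to their targets. The labels call the 2 libraries of each genotype biological replicates and do not say whether a line is 1 clone.

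Cytokine receptors of the IL-7 type have no kinase of their own. On ligand binding, JAK kinases attached to their tails phosphorylate the receptor and then STAT transcription factors, which enter the nucleus. SOCS proteins are made in response to STATs, block JAK activity or recruit receptors for degradation, and so close a feedback loop. KIT, the receptor for stem cell factor, has its own kinase domain, and SYK acts below the pre-B cell receptor. B cell progenitors depend on IL-7 and on the pre-B cell receptor, and the Abelson kinase is known to activate JAK-STAT signalling without cytokine.

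Several microRNAs are known from other work to act on these transcripts, and their mature sequences are shown to make plain which seeds such sites would pair with. The miR-17 family is known for Jak1, miR-19 for Socs1 and Socs3, miR-155 for Socs1, and miR-221 and miR-222 for Kit. All 7 mature sequences were found in RefSeq (GRCm38.p6). They are written 5′ to 3′, with the seed, bases 2 to 8, in capitals, and fall into 4 seeds.
mmu-miR-17-5p: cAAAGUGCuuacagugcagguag
mmu-miR-20a-5p: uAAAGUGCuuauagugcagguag
mmu-miR-19a-3p: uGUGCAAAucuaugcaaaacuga
mmu-miR-19b-3p: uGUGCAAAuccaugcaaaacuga
mmu-miR-155-5p: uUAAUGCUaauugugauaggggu
mmu-miR-221-3p: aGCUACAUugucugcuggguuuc
mmu-miR-222-3p: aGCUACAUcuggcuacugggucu
The first pair share the seed AAAGUGC and the miR-19 pair share GUGCAAA. The last pair share GCUACAU and differ after it. The deposited table gives no microRNA and no site sequence for the 6 features, so none of these sequences was assigned to a feature here.

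The whole reads behind each deposited mean were worked out library by library. The authors' comparison places libraries Wa and Wb on the wild-type side and libraries Ma and Mb on the mutant side, and which replicate each one is could not be told. Reads in all features ranged from 14539 in Mb to 160207 in Wa. Normalized reads are reads divided by the library's size factor, so that 1 read is worth 0.272 in Wa and 0.921 in Wb, with 1.62 in Ma and 2.21 in Mb. Each library's value is given with its exact 95% Poisson interval, which accounts for counting error alone. Library Mb stood apart from the other 3. Over all features, its log2 normalized reads correlated with theirs at 0.14 to 0.26, against 0.74 to 0.83 among them, a description over features that share libraries and depth. Markers of stromal cells and fibroblasts, of which 3 of 8 listed genes had features, summed to 373.6 normalized reads in Mb and to between 4.08 and 9.71 in the others; Thbs1 and Pdgfra were read in Mb alone. B lineage markers, with 5 of 15 genes in the table, summed to 13.3 in Mb and to between 152.0 and 195.8 elsewhere, and the lineage-defining genes Cd79a, Ebf1 and Pax5 had no feature among those analysed. No RNA levels were analysed here, so fewer cells of a type, less RNA per cell and less Ago2 per transcript cannot be told apart.

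Socs1, Jak1 and Socs3 were among the most heavily read features, whereas Kit, Syk and Il7r were thinly read. Socs1 ranked 48 of 2548 by the mean in the authors' deposited table, at 128.8 normalized reads, Jak1 ranked 83 at 77.8 and Socs3 ranked 174 at 43.2. Kit had a mean of 5.53, close to the median of 4.85 over all features, while Syk had 3.104 and Il7r 1.77. These values are not per length, so the order is one of read numbers and not of binding per transcript. The 6 genes together held 1.09% of the reads of Wa (exact Clopper-Pearson 95% interval 1.04 to 1.14), 0.812% of Wb (0.725 to 0.906), 0.508% of Ma (0.423 to 0.605) and 0.227% of Mb (0.156 to 0.319). Both mutant-side shares lay below both wild-type shares, and most of each share came from Socs1, Jak1 and Socs3.

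**Figure D1:**
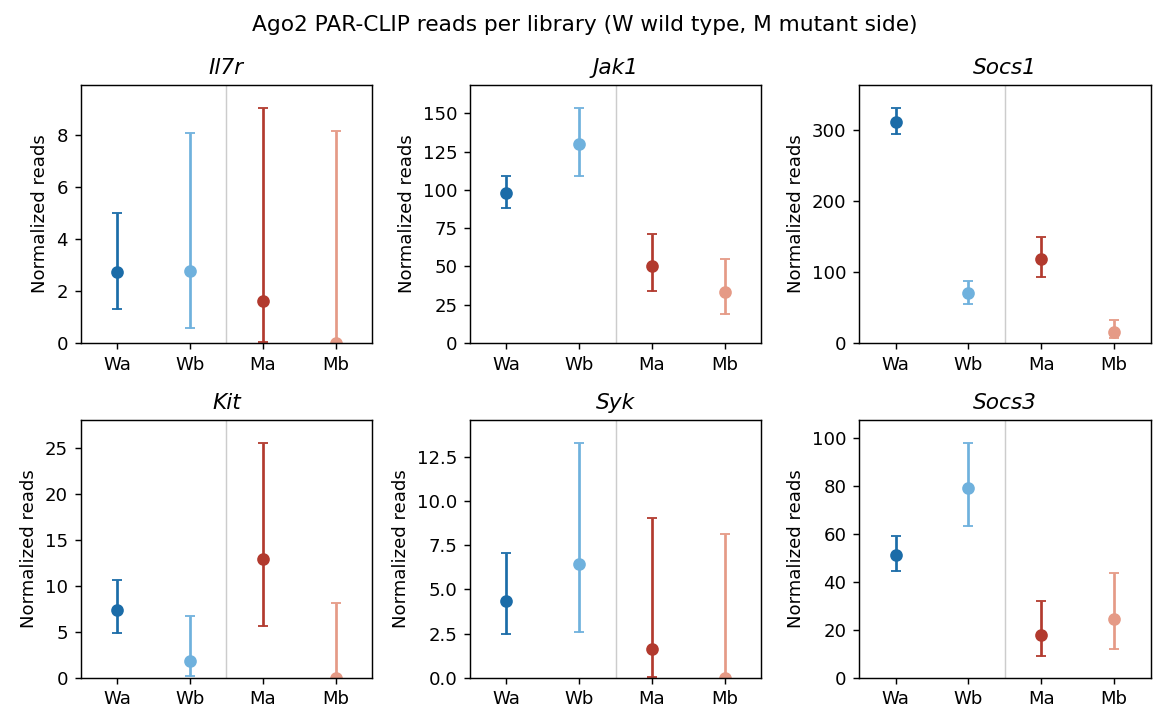
Normalized Ago2 reads (vertical axes, linear, from 0, each with its own scale) of the 6 genes in wild-type libraries Wa and Wb and mutant-side libraries Ma and Mb; points are single libraries and bars exact 95% Poisson intervals. For Jak1 and Socs3 both mutant-side points lie below both wild-type points, at 50.2 and 33.2 against 98.1 and 129.9 for Jak1, while for Socs1 the wild-type points are at 311.7 and 70.0.

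In the comparison of mutant with wild type, 5 of the 6 features had a log2 fold change below 0 and Kit was above 0, but none passed an adjusted p of 0.05. Jak1 and Socs3 showed the clearest separation of the libraries by genotype. Over the whole comparison 0.0% of features passed that threshold, and the smallest adjusted p was 0.165. The median deposited log2 fold change was -1.33 over the 6 features and -0.07 over all 2548. A value below 0 was common: 52.5% of all features had one, and so did 80.5% of the 195 features with a mean of at least 40 normalized reads, the depth class of Jak1, Socs1 and Socs3, whose median was -0.43. The direction shared by these 3 genes is therefore near the background of features read as heavily. At an unadjusted p under 0.05, the deposited table had 7.57% of all features higher and 0.903% lower in the mutant, and 2.56% higher and 3.08% lower of those with a mean of at least 40; Jak1 and Socs3 were among the lower ones. With 2 libraries against 2, an exact two-sided permutation test of one feature cannot go below p = 0.333.

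**Figure D2:**
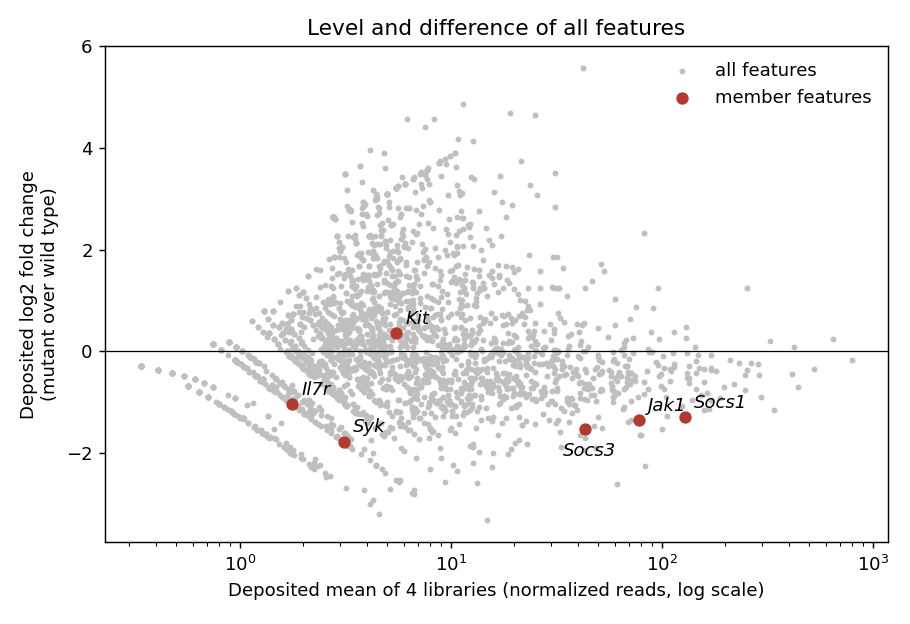
Deposited log2 ratio of mutant to wild type (vertical axis) against the deposited mean of 4 libraries in normalized reads (horizontal axis, log scale), for all 2548 features in grey and the 6 genes in red. Socs3, Jak1 and Socs1 lie at means of 43.2, 77.8 and 128.8 with values between -1.53 and -1.29, in a part of the plot where most features are below 0.

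Il7r encodes the alpha chain of the IL-7 receptor, which JAK1 binds. Reads at its feature numbered 10 in Wa and 3 in Wb on the wild-type side, then 1 in Ma and 0 in Mb. Normalized, Wa stood at 2.72, Wb at 2.76 and Ma at 1.62 (interval 0.041 to 9.02). Both mutant-side values were the lower ones, yet the intervals of all 4 libraries overlapped. The exact interval of the 0 in Mb reaches 8.16 normalized reads, and the limit of 3 reads used here for a count of 0 comes to 6.63. Both are above either wild-type value, so a difference was not detectable at this depth. The deposited log2 fold change was -1.05 (standard error 1.49, adjusted p = 1.00 from the authors' deposited table with Benjamini-Hochberg adjustment).

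Kit was read 27 times in Wa and 2 times in Wb, against 8 times in Ma and not at all, 0 reads, in Mb. The highest normalized value was in mutant-side library Ma, 12.9 (interval 5.59 to 25.5), followed by Wa with 7.34 (4.84 to 10.7) and Wb with 1.84 (0.223 to 6.66). The groups overlapped fully, since the highest and the lowest value were both on the mutant side. The wild-type mean was 4.59 ± 3.89 (SD, n = 2) and the mutant-side mean 6.47 ± 9.16 (SD, n = 2). In the authors' deposited table the log2 fold change was 0.36 (standard error 1.35, adjusted p = 1.00 by Benjamini-Hochberg adjustment). Its sign depended on the scaling of the libraries: limma's voom on the recovered reads gave -0.15 with TMM scaling and 0.05 with the authors' size factors. It was 1.60 without Mb and -2.25 without Ma.

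Jak1, the kinase that serves the IL-7, interferon and gp130 receptors, was well read in every library, with 361 reads in Wa and 141 in Wb, then 31 in Ma and 15 in Mb. Normalized reads were 98.1 in Wa (interval 88.2 to 108.8) and 129.9 in Wb (109.3 to 153.2), with 50.2 in Ma (34.1 to 71.2) and 33.2 in Mb (18.6 to 54.7). The groups did not overlap, and each mutant-side interval lay below both wild-type intervals. The wild-type mean of 114.0 ± 22.5 (SD, n = 2) was 2.74 times the mutant-side mean of 41.7 ± 12.0 (SD, n = 2).

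The deposited log2 fold change of Jak1 was -1.36 (standard error 0.68, 95% interval -2.69 to -0.04, unadjusted p = 0.0441), and after Benjamini-Hochberg adjustment its p was 0.561 (authors' deposited table). A value as low or lower was held by 7.18% of all features and by 7.69% of those with a mean of at least 40. Without Mb, voom gave -1.13 (standard error 0.64, adjusted p = 0.975 by Benjamini-Hochberg adjustment), so Ma alone also lay below the wild-type libraries for this gene.

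Syk is the tyrosine kinase that couples the pre-B cell receptor to its downstream pathways. Its reads numbered 16 in Wa and 7 in Wb, then 1 in Ma and 0 in Mb, which normalized to 4.35, 6.45, 1.62 and 0. Both mutant-side values were below both wild-type values, but the interval of Ma, 0.041 to 9.02, covered them, and the 0 in Mb allows 6.63. The deposited log2 fold change of -1.78 (standard error 1.43, adjusted p = 0.955 from the authors' deposited table with Benjamini-Hochberg adjustment) rests on 24 reads in all.

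Socs1, which binds JAK kinases and blocks their active site, had the most reads of the 6, with 1147 in Wa and 76 in Wb, then 73 in Ma and 7 in Mb. Normalized, these came to 311.7 (interval 293.9 to 330.3), 70.0 (55.2 to 87.6), 118.2 (92.6 to 148.6) and 15.5 (6.22 to 31.9). No 2 of these intervals overlapped. The wild-type libraries differed 4.45-fold from each other, and the mutant-side library Ma lay between them, so the genotypes were not separated. The wild-type mean was 190.9 ± 170.9 (SD, n = 2) and the mutant-side mean 66.8 ± 72.6 (SD, n = 2). In the authors' deposited table the log2 fold change was -1.29 (standard error 1.05, 95% interval -3.35 to 0.76, adjusted p = 0.956 by Benjamini-Hochberg adjustment).

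A log2 fold change as low as that of Socs1 or lower was held by 8.28% of all features and by 9.23% of those with a mean of at least 40. The value for Socs1 depended on which mutant-side library was used. With voom it was -0.48 without Mb (adjusted p = 0.975) and -3.51 without Ma (standard error 0.98, adjusted p = 0.00805 by Benjamini-Hochberg adjustment). The latter sets the lone library Mb against the wild-type libraries and assumes that it varies as they do. In that fit 412 of 2547 features passed, so a pass was not particular to Socs1.

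Socs3 acts on gp130-type receptors and the JAKs bound to them. Its feature was read 189 times in Wa and 86 times in Wb, then 11 times each in Ma and Mb. Normalized reads were 51.4 in Wa (interval 44.3 to 59.2) and 79.2 in Wb (63.4 to 97.8), with 17.8 in Ma (8.89 to 31.9) and 24.3 in Mb (12.1 to 43.5). Both mutant-side libraries lay below both wild-type libraries, with intervals that did not reach those of the wild type. The mutant-side libraries were alike within counting error, and the wild-type libraries differed 1.54-fold. The wild-type mean of 65.3 ± 19.7 (SD, n = 2) was about 3 times the mutant-side mean of 21.1 ± 4.61 (SD, n = 2).

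The log2 fold change of Socs3 in the authors' deposited table came to -1.53 (with a standard error of 0.73, a 95% interval of -2.97 to -0.10 and an unadjusted p = 0.0362), and its adjusted p of 0.561 by Benjamini-Hochberg adjustment did not pass. A value as low or lower was held by 5.22% of all features and by 4.62% of those with a mean of at least 40. Of the 6 genes it varied least when single libraries were left out, with voom values from -2.02 without Wa to -1.43 without Wb, and none of these passed.

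**Figure D3:**
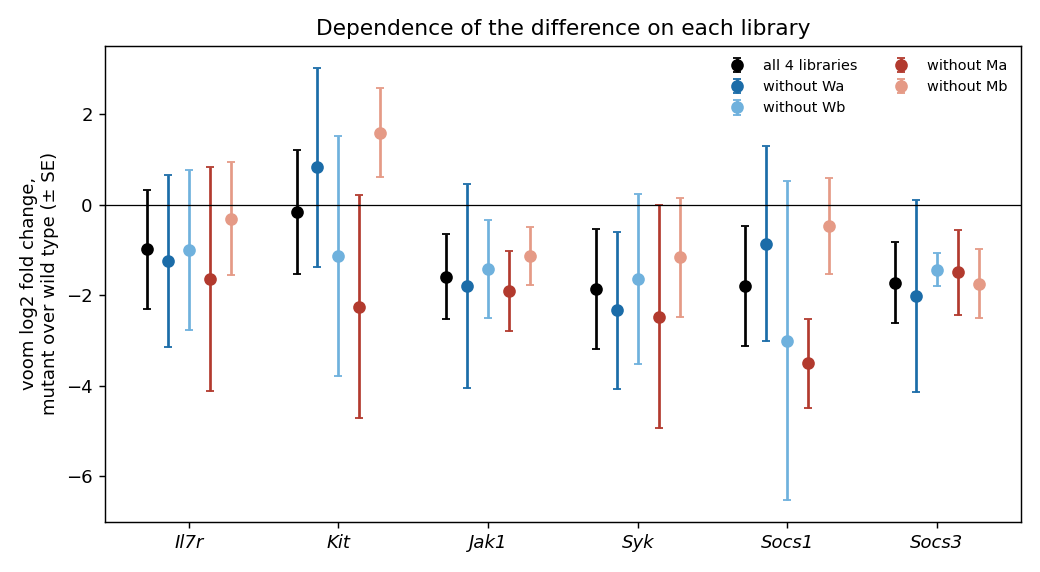
Log2 fold change (mutant over wild type) from limma's voom on recovered reads (vertical axis, points with standard errors as bars) for the 6 genes, with all 4 libraries and with each library left out in turn. Jak1 and Socs3 stay between -2.02 and -1.13, whereas Kit runs from -2.25 to 1.60 and Socs1 from -3.51 to -0.48.

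Across the 6 genes, both mutant-side libraries lay below both wild-type libraries for Il7r, Jak1, Syk and Socs3, that is for 4 of 6. This held for 20.1% of all features and for 24.1% of those with a mean of at least 40. The mutant-side libraries differed in this respect among heavily read features: in 79.0% of them Mb was under both wild-type values, and in 32.8% Ma was; over all features these shares were 41.7% and 36.3%. At Jak1 and Socs3 Ma was below as well, and at Socs1 it was not. Il7r, Kit and Syk had 0 reads in Mb, as had 25.2% of all features. The part of the stromal and B lineage marker reads in these differences was not tested. By voom, leaving out Mb moved Il7r from -0.99 to -0.31, Kit from -0.15 to 1.60, Jak1 from -1.59 to -1.13, Syk from -1.86 to -1.16 and Socs1 from -1.79 to -0.48. Socs3 was at -1.72 with Mb and -1.74 without it.

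Ratios between genes within a library do not depend on the scaling of libraries. Socs1 made up 85.9% of the reads of Socs1 and Socs3 together in Wa (exact Clopper-Pearson 95% interval 83.9 to 87.7) and 86.9% in Ma (77.8 to 93.3). In Wb it was 46.9% (39.0 to 54.9) and in Mb 38.9% (17.3 to 64.3). Thus 1 library of each genotype had about 6 reads of Socs1 for each of Socs3, at 6.07 and 6.64, and the other fewer than 1, at 0.884 and 0.636. Socs3 against Jak1 was steadier, with Socs3 at 34.4% of their joint reads in Wa and 37.9% in Wb, with 26.2% in Ma and 42.3% in Mb. The intervals of all 4 libraries overlapped for this pair, so Jak1 and Socs3 kept their proportion within counting error while both were lower on the mutant side. These ratios were chosen after the values were seen.

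The other genes of these pathways were taken from lists that cover cytokine receptors, JAKs and STATs, negative regulators, pre-B cell receptor signalling, adaptors with the RAS pathway, and STAT targets. Besides the 6 genes, 141 genes were listed and 32 had a feature, each represented by the one with the highest mean. Of the 32 genes, 20 had a deposited log2 fold change below 0 and 12 above 0. A value below 0 was held by 52.5% of all features and by 80.5% of those with a mean of at least 40. Because the strongest feature stands for each gene, the share over all features is not matched for depth, here or for the single lists below. The median of the 32 genes was -0.29 against -0.07 over all features. None of their 47 features passed an adjusted p of 0.05. At an unadjusted p under 0.05, 1 was lower and 6 were higher in the mutant, where all features had 0.903% lower and 7.57% higher. Each of the 6 was highest in Mb, and the lower feature, of Lifr, was highest in Wb by far. These counts thus rest largely on single libraries.

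Among JAKs and STATs, 3 of 11 listed genes had features: Jak1 itself, Stat3 and Stat5b. All 3 lay below 0, as did 52.5% of all features, with a median of -1.30 by the strongest feature of each gene and -0.92 over all 4 features. Stat3, the main STAT below gp130 and a partner of SOCS3 in feedback, had 2 features. The stronger held 16.6 normalized reads in Wa and 45.1 in Wb, with 4.86 in Ma and 17.7 in Mb, with a deposited log2 fold change of -1.30 (standard error 0.95). Its groups overlapped, because Mb lay above Wa. The weaker Stat3 feature had -0.15 (standard error 0.86) in the authors' deposited table, and Stat5b, a STAT used by IL-7, -0.54 (standard error 1.18).

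Of the negative regulators, 9 of 28 listed genes had features, and 5 of the 9 were SOCS genes. Of the 9, 6 lay below 0 and 3 above, where 52.5% of all features were below 0. Socs2 was at 2.56 normalized reads on average with a deposited log2 fold change of -1.48 (standard error 1.46), and Socs6 at 7.54 with -0.60 (standard error 1.03). Socs5 went the other way, with 3.42 in the authors' deposited table (SE 1.21; p = 0.00478 before adjustment). There were 1.36 normalized reads in Wa and 0.921 in Wb, then 3.24 in Ma and 44.2 in Mb, so its high value lay in Mb, on 20 reads, and Ma rested on 2 reads. The adjusted p of Socs5, over all features of the authors' deposited table, did not pass. Ptpn11, the phosphatase SHP2, had 2.28 and Pias2 had -2.10, each with a standard error above 1.49 in that table.

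**Figure D4:**
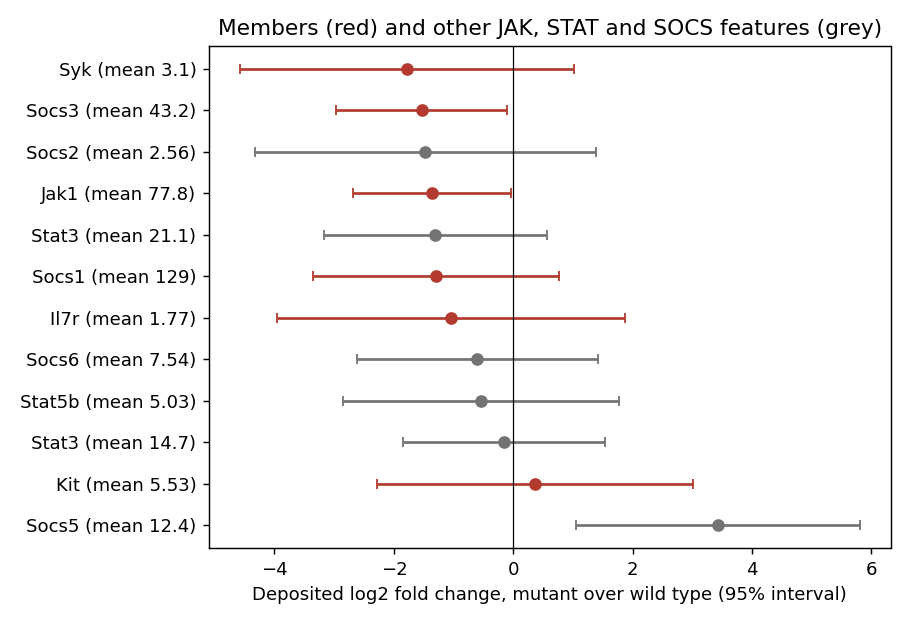
Deposited log2 ratio of mutant to wild type with 95% intervals derived from the deposited p (horizontal axis) for the 6 genes in red and the other JAK, STAT and SOCS features in grey, with each feature's mean in normalized reads beside its name. Intervals of Jak1 and Socs3 end just below 0, at -0.04 and -0.10, and Socs5 stands apart at 3.42.

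Reads of cytokine receptor genes lay in different libraries from gene to gene. Of 43 listed genes 10 had features, 16 in all, with 6 genes above 0 and 4 below, where 52.5% of all features were below 0. Of the 10 genes, 4, Il7r, Kit, Csf2rb and Il17ra, had 0 reads in Mb, as had 25.2% of all features. Of the 16 features 6 were read in Mb alone, against 5.14% of all features. Those in Mb alone were features of Pdgfra, Osmr and Il1r1, the receptors for platelet-derived growth factor, oncostatin M and interleukin-1. The shared chain gp130, Il6st, had 39.8 normalized reads in Mb at its stronger feature and at most 2.76 in the others, with a deposited log2 fold change of 2.63 (standard error 1.23). Lifr, its partner for leukaemia inhibitory factor, was highest in Wb at its stronger feature, at 217.4, against 7.88 in Wa, 1.62 in Ma and 19.9 in Mb, and had -2.62 in the authors' deposited table (SE 1.25). Tgfbr2 had 2 features: the stronger, with the most reads of any listed receptor, had 0.08 in the authors' deposited table (SE 0.60) and between 363.1 and 466.1 normalized reads in every library. The weaker had -0.84 (SE 0.78), with 23.6 and 31.3 normalized reads in Wa and Wb and 17.8 and 11.1 in Ma and Mb. Summed reads of the stromal marker list were also highest in Mb, but that list holds Pdgfra, whose 3 features are among the 6 read in Mb alone, so the 2 counts are not independent. The part of stromal marker reads in these features was not tested.

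All 5 measured genes of pre-B cell receptor signalling, of 27 listed, lay below 0, as did 52.5% of all features, with a median of -0.68. They were thinly read, with 6 reads in all for Vav2, 16 for Sh3bp2, 24 for Syk, 26 for Prkcb and 50 for Fyn. Of the 5 genes, 4, Syk among them, had 0 reads in Mb, as had 25.2% of all features. The exception was Fyn, a SRC family kinase, with 8.70 normalized reads in Wa and 10.1 in Wb, with 6.47 in Ma and 6.63 in Mb and a deposited log2 fold change of -0.45 (standard error 0.99). Prkcb, the protein kinase C of B cells, had -1.59 (standard error 1.38) in the authors' deposited table, Sh3bp2 -0.07 and Vav2 -0.68.

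Adaptors and RAS pathway genes numbered 8 of 24, with 5 below 0 and 3 above, where 52.5% of all features were below 0. Gab1, a docking protein below many receptors, was more heavily read than any of the 6 genes, with 448.9 normalized reads in Wa and 334.4 in Wb, with 320.5 in Ma and 75.2 in Mb and a deposited log2 fold change of -0.90 (standard error 0.85). Ma was close to Wb here and Mb was far below. Sos1, the exchange factor that activates RAS, held 84.5 and 58.95 normalized reads in Wa and Wb and 35.6 and 11.1 in Ma and Mb, with -1.47 in the authors' deposited table (SE 0.82; p = 0.0731 before adjustment), and its groups did not overlap. Pik3ca, a catalytic subunit of PI3 kinase, was at 59.2, 58.0 and 61.5 normalized reads in Wa, Wb and Ma at its stronger feature, and at 4.42 in Mb. At its weaker feature Mb was less far below, with 41.0, 41.5 and 40.5 in Wa, Wb and Ma and 24.3 in Mb. Abl1, the cellular form of the transforming kinase, had 0.74 in the authors' deposited table (SE 0.81) and 12.5, 14.7, 14.6 and 33.2 normalized reads in Wa, Wb, Ma and Mb. Whether reads of the vector's kinase were counted at Abl1 is not given in the sources used here. The related kinase gene Abl2, less heavily read, had 0.62 at its stronger feature and 2.29 at its weaker in the authors' deposited table.

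STAT target genes had features for 6 of 18, and Socs1, Socs2 and Socs3 are 3 of the 6. Of the 6, 5 lay below 0 and 1 above, with a median of -1.36, where 52.5% of all features were below 0. Socs1, Socs3 and Ccnd2 have means of at least 40, a class in which 80.5% of features were below 0. Ccnd2, cyclin D2, had -1.42 in the authors' deposited table (SE 0.98), with 89.4 and 143.7 normalized reads in Wa and Wb at its strongest feature, and 8.09 and 68.5 in Ma and Mb. Here Ma was the lowest library, in contrast to Socs1, where Mb was. Mcl1, a survival factor of the BCL-2 family, had 0.71 (standard error 0.87) and Osm, the cytokine oncostatin M, -0.20 (standard error 1.57) in the authors' deposited table.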

How the data were processed

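The data were 1 table of the authors' own comparison. Per the file headers it gives a mean of normalized reads, a signal computed by the authors with DESeq2, a log2 fold change and an unadjusted p-value per feature. Direction, mutant over wild type, was read from the deposited table's name. Per the submitters' processing notes the tools were CASAVA 1.8.2, BWA 0.7.12-r1039 and DESeq2, with builds mm9 and NCBIM37. What each tool did, how features were drawn and whether PCR copies were removed is not given in the sources used here. The p-values were adjusted by Benjamini-Hochberg over all 2548 features. Standard errors were derived from the log2 fold change and p, assuming a Wald test. As read from the values, deposited log2 fold changes are shrunken and do not rank thinly read features.

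Each deposited mean, printed to 15 digits, is a sum of whole reads weighted per library, and exactly 1 combination of whole reads was found for 100.0% of features. Of the 2165 lowest means, shifted slightly, 0 had a solution. On data simulated from features of lower mean, 2236 of 2236 features were recovered exactly. Jak1 and Socs1 have higher means than either check covered, and Socs3 a higher mean than those shifted. For Jak1 and Socs1 the reads rest on the only combination found. Libraries were put on sides by the authors' fold changes: the split used had the deposited direction in 98.8% of features, and other splits in at most 67.6%. A wrong label in the authors' comparison would carry over. Limma 3.58.1 (voom) in R 4.3.3, with TMM written out, was run on these reads as an alternative, with each library left out in turn. It was also run on data simulated from the levels in Wa, Wb and Ma, with the same variation for every library. That simulation does not cover a library that stands apart as Mb does. Gene names were matched by identifier to RefSeq for 2540 features.

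Members and lists were chosen with earlier results of these data known. Genes named from a list were up to 4 with the highest mean and up to 2 more with the smallest p. The planned naming of features most alike in pattern needs at least 6 libraries and was not done. A few results covered by these rules are left out here.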

Additional observations from a re-analysis of the deposited data

How the results depend on the processing

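The 6 differences were set against 51 alternatives, of which 47 kept direction and side of the threshold. The alternatives were an adjusted p of 0.10, features at or above the median mean, and several fits with limma's voom. Those fits used TMM, the authors' size factors, at least 20 reads, or each library left out. The adjusted p of 0.10 and the median mean reused the deposited log2 fold change. Direction could not change under them, so 47 of 51 overstates what was tested. The exceptions among the 51 were Kit, which was reversed at -0.15 with TMM, and values among those with a library left out. Those ran from -1.64 to -0.31 for Il7r, -2.25 to 1.60 for Kit, -1.90 to -1.13 for Jak1, -2.47 to -1.16 for Syk, -3.51 to -0.48 for Socs1 and -2.02 to -1.43 for Socs3. Kit was -1.13 without Wb and -2.25 without Ma. Socs1 passed without Ma, at an adjusted p of 0.00805 by voom, in a range of 0.00805 to 0.999 over its alternatives. The number of features past an adjusted p of 0.05 was 0 in the deposited table and with voom (before adjustment, 69 higher and 11 lower at p under 0.05 with TMM), and 0 to 412 with a library left out, the highest without Ma. The cause was not tested. TMM moved the median of all features to -0.07 from 0.05 with size factors. At least 20 reads left out Il7r, and the median mean left out Il7r and Syk. For levels, the mean of the wild-type libraries was set against the mean of all libraries. With equal group sizes such a shift cannot exceed the SD over all libraries, so this comparison cannot decide whether levels are stable. List medians over every feature moved by less than the median standard error of single features, which is not a spread of the median. No paired analysis was possible because the deposited table carries no replicate numbers. Depth limits Il7r, Syk and Kit, where a 0 in Mb allows 6.63 normalized reads.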

Other observations

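Within each genotype the libraries differed from each other in partly the same features. Among the 195 features with a mean of at least 40 normalized reads, the difference of log2 normalized reads between Wa and Wb correlated with that between Ma and Mb at 0.41, and over all 2548 features at 0.22. This is a description over features that share libraries and depth, and replicate numbers are not known for the recovered libraries. The letters a and b were given by size factor, the larger first, and do not mark matched libraries. The sign of both correlations depends on that order. Socs1 and Kit were higher in Wa than in Wb and in Ma than in Mb. The stronger Lifr feature was higher in Wb and in Mb than in the other library of its genotype, while the weaker had 20.3 normalized reads in Wb, 0.272 in Wa and 0 in both Ma and Mb.

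Bcl11b, a transcription factor of T cells, was the one T cell marker of 7 with a feature, with 39.8 normalized reads in Mb and 0 in the other libraries. No listed myeloid, erythroid or hepatocyte marker had a feature.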
